A study of Mus musculus with 12 samples.

Results

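Paneth cells sit at the base of the small intestinal crypts and release granules of antimicrobial protein into the lumen. The genes described here are 6 of their products, namely Lyz1, Defa17, Defa24, Mmp7, Itln1 and Ang4. They were chosen by name for the cell type they mark, with earlier results of these data known. Ensembl identifiers were matched to GENCODE M21 symbols to find them. All 6 were among the 46078 genes in the count tables, and all 6 passed the filter on low counts that left 15823 genes for testing. The study sequenced RNA from scrapings of proximal ileal epithelium of male C57BL/6 mice aged 28 days at the first gavage and 56 days at the end. Animals in every group were gavaged 7 times at 4-day intervals, with sesame oil alone (vehicle) or with sesame oil carrying 3, 10 or 30 µg/kg TCDD (the dioxin 2,3,7,8-tetrachlorodibenzo-p-dioxin), which activates the aryl hydrocarbon receptor (AhR). There were 3 libraries in each of the 4 groups, 12 in all, and replicate numbers only name the libraries, because the labels give none. A scraping pools every cell that comes off the mucosa, so in these bulk libraries more Paneth cells and more RNA per Paneth cell cannot be told apart.

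Paneth cells arise from crypt stem cells under Wnt signalling and return Wnt, Notch and growth factor signals to the stem cells beside them. Their granules carry lysozyme (Lyz1), which cuts the bacterial cell wall, and alpha-defensins (cryptdins, the Defa genes), small cationic peptides that are made as inactive precursors. In the mouse the metalloproteinase matrilysin (Mmp7) cleaves those precursors into active peptides, while intelectin 1 (Itln1) is a lectin for microbial sugars and angiogenin 4 (Ang4) is a bactericidal ribonuclease.

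The alpha-defensins are a cluster of near copies, and their coding sequences are shown because reads from one copy can fit another. They were read from GENCODE M21 transcripts (GRCm38, plus strand for Defa17 and Defa24). Capitals in Defa24 mark bases that differ from Defa17, and capitals in Defa22, a second type of cryptdin described further on, mark bases that differ from Defa24.
Defa17: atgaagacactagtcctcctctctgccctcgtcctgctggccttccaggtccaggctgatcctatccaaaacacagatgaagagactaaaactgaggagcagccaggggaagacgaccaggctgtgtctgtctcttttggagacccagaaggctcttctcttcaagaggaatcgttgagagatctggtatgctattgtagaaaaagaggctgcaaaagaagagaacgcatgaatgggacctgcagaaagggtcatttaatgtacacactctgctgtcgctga
Defa24: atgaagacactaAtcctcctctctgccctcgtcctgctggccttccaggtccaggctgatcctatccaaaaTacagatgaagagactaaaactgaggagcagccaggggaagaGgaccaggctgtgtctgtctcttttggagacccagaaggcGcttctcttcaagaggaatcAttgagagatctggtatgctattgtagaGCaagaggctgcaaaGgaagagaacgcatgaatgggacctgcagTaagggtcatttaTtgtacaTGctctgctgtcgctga
Defa22: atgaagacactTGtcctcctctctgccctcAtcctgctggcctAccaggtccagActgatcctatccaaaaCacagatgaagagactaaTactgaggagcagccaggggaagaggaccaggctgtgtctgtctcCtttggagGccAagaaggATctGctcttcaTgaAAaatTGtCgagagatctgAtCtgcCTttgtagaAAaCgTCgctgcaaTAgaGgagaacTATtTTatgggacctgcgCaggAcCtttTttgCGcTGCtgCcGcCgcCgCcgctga
Defa17 and Defa24 differed at 12 of 282 aligned positions (95.7% identity), and the coding sequence of Defa3 was identical to that of Defa17. Defa24 and Defa30 differed at 4 positions, and Defa21 and Defa22 at 2. Defa22 and Defa24 were farther apart, at 53 of 285 aligned columns (81.4% identity).

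Promoters were looked up because the 6 genes moved together, and 4 of the 6 had an entry in the RefSeq table (GRCm38.p6), which held none for Defa17 or Defa24. The 250 bases before the start site are shown for Lyz1, for its neighbour Lyz2 (the lysozyme of myeloid cells), for Ang4, and for Cyp1a1 as a known AhR target. Capitals mark matches on either strand to GCGTG (the core that AhR and its partner bind), to CTTTGA or CTTTGT (the core bound by the TCF factors of the Wnt pathway) and to TATAAA.
Lyz1, chr10:117292869-117293118, minus strand: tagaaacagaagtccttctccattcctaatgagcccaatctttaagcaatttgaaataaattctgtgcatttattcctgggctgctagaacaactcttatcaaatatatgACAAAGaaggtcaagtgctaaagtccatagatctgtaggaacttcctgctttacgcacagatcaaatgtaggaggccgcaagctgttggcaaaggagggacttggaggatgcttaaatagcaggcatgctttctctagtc
Lyz2, chr10:117282273-117282522, minus strand: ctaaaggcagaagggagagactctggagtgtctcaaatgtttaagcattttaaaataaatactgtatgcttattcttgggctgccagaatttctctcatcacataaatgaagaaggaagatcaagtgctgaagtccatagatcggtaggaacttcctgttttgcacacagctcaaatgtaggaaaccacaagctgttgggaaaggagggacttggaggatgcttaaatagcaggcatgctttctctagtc
Ang4, chr14:51773591-51773840, minus strand: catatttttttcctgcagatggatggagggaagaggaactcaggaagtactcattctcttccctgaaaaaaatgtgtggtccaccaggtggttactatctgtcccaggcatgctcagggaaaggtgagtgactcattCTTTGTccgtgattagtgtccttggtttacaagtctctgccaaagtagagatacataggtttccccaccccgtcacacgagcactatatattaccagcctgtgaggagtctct
Cyp1a1, chr9:57697363-57697612, plus strand: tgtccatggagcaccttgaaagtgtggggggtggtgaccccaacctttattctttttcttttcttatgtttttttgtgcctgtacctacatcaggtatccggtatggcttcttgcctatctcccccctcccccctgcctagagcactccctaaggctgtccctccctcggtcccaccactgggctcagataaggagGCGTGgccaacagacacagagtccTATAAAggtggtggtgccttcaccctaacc
GCGTG was found in 1 place in the Cyp1a1 window and in none of the windows of Lyz1, Ang4, Itln1 (chr1:171535295-171535544) or the first of 2 starts listed for Mmp7 (chr9:7691840-7692089). The second Mmp7 start had 1 match. Of 32851 promoters of this length, 28.2% held GCGTG, 27.6% held CTTTGA or CTTTGT, and 12.4% held TATAAA. The TCF core was present once upstream of Lyz1 and once upstream of Ang4 and in 2 places at the second Mmp7 start, and was absent from the windows of Itln1, the first Mmp7 start and Lyz2. The Lyz2 window was 79.4% identical to that of Lyz1. A match or its absence describes these letters only.

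Depth was between 11695887 and 22180274 counts assigned to genes per library. The labels were checked on the AhR target Cyp1a1, which lay at 19.0 to 27.5 CPM (counts per 1000000 assigned, after TMM scaling of library sizes) in vehicle, 22.2 to 141 CPM at 3 µg/kg, 872 to 1333 CPM at 10 µg/kg and 2608 to 3251 CPM at 30 µg/kg. The tissue label was checked on the ileal bile acid carrier Fabp6, which was at 0.0525 to 0.0926 CPM in vehicle, under the 3-count floor of 0.135 to 0.257 CPM, and at 22.9 to 38.3 CPM at 3 µg/kg. At 10 and 30 µg/kg Fabp6 was between 0 and 0.306 CPM, and the ileal bile acid transporter Slc10a2 was at 5.46 to 16.5 CPM at 3 µg/kg, against 0.451 to 2.68 CPM in vehicle, 0.980 to 2.16 CPM at 10 µg/kg and 0.868 to 0.986 CPM at 30 µg/kg. Both markers thus set the 3 µg/kg group apart. Fabp6, a defining marker of the ileum, was at or near 0 in every library outside the 3 µg/kg group, and the position along the intestine that each group represents was not tested.

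Lyz1 (chr10:117287797-117292868, minus strand) was at 354, 470 and 309 CPM in the vehicle libraries and at 313, 679 and 774 CPM at 3 µg/kg. At 10 µg/kg it was at 684, 483 and 662 CPM, and at 30 µg/kg at 1014, 1385 and 1446 CPM. Every 30 µg/kg library was above every other library, the 10 µg/kg libraries were all above vehicle, and the 3 µg/kg libraries overlapped vehicle because of replicate 1. The increase at 30 µg/kg over vehicle was 3.40-fold (log2 1.76 ± 0.29 SE, adjusted p = 0.00326, edgeR quasi-likelihood test adjusted over all genes tested). At 3 and 10 µg/kg the log2 differences were 0.64 ± 0.28 (adjusted p = 0.418) and 0.69 ± 0.28 (adjusted p = 0.265), which did not pass.

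Defa24 (chr8:21734494-21735471) was at 167, 241 and 148 CPM in vehicle and at 162, 361 and 428 CPM at 3 µg/kg. It reached 316, 233 and 346 CPM at 10 µg/kg and 433, 605 and 611 CPM at 30 µg/kg. The highest vehicle library overlapped the lowest one at 10 µg/kg, whereas the 30 µg/kg libraries were again above all others. The increase at 30 µg/kg was 2.96-fold (log2 1.57 ± 0.31 SE, adjusted p = 0.00961), and the log2 differences at 3 and 10 µg/kg were 0.77 and 0.69 (adjusted p = 0.367 and 0.294).

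Defa17 (chr8:21655780-21656735), whose coding sequence is the same as that of Defa3, was counted far less. It had 41, 77 and 65 counts in vehicle (2.31, 3.56 and 3.42 CPM), 16, 63 and 59 counts at 3 µg/kg (1.21, 3.68 and 3.46 CPM), 49, 40 and 70 counts at 10 µg/kg (3.53, 2.90 and 4.29 CPM) and 119, 67 and 137 counts at 30 µg/kg (6.08, 5.95 and 7.50 CPM). The 30 µg/kg values stood above all others, and the other 3 groups overlapped. The log2 difference at 30 µg/kg was 1.07 ± 0.32 SE (adjusted p = 0.0682), which did not pass the threshold, and those at 3 and 10 µg/kg were -0.14 and 0.21.
Only 8.05% of the 50-base windows of the Defa17 transcript were unique to it (320 of 348 also occur in Defa3), against 71.9% for Defa24, which shares its other windows mainly with Defa30. The Defa17 level is therefore uncertain, since most reads from it would match Defa3 equally well.

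Mmp7 (chr9:7692090-7699585), the enzyme that activates the defensin precursors, was at 22.1, 28.6 and 18.6 CPM in vehicle and at 18.5, 40.8 and 47.5 CPM at 3 µg/kg. It was at 28.8, 28.4 and 37.5 CPM at 10 µg/kg and at 51.4, 56.0 and 63.8 CPM at 30 µg/kg. Vehicle and 10 µg/kg overlapped, and 30 µg/kg stood clear of both. The increase at 30 µg/kg was 2.47-fold (log2 1.30 ± 0.27 SE, adjusted p = 0.0142), and the log2 differences at 3 and 10 µg/kg were 0.63 and 0.45 (adjusted p = 0.413 and 0.432). An antisense transcript, AV064505, overlaps Mmp7, and reads from the pair cannot be told apart without a known strand setting.

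Itln1 (chr1:171518122-171535294, minus strand) was at 168, 214 and 154 CPM in vehicle and at 140, 315 and 350 CPM at 3 µg/kg. It was at 280, 238 and 289.7 CPM at 10 µg/kg and at 413, 492 and 475 CPM at 30 µg/kg. No 10 µg/kg library fell among the vehicle libraries, and no 30 µg/kg library among the 10 µg/kg ones. The increase at 30 µg/kg was 2.58-fold (log2 1.37 ± 0.26 SE, adjusted p = 0.00776), and at both lower doses the log2 difference was 0.59 (adjusted p = 0.414 and 0.286).

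Ang4 (chr14:51763878-51773590, minus strand) changed most of the 6. It was at 34.6, 46.3 and 28.3 CPM in vehicle, 38.3, 81.1 and 90.8 CPM at 3 µg/kg, 95.3, 68.1 and 94.5 CPM at 10 µg/kg and 159, 195 and 194 CPM at 30 µg/kg. The 10 µg/kg libraries were all above vehicle and the 30 µg/kg libraries all above those. The increase at 30 µg/kg was 5.01-fold (log2 2.33 ± 0.28 SE, adjusted p = 0.000362), and at 10 µg/kg the difference was 2.36-fold and did not pass (log2 1.24 ± 0.27 SE, adjusted p = 0.0717). Ang4 was also the member that passed between 30 and 10 µg/kg (log2 1.09 ± 0.27 SE, adjusted p = 0.0394). That call was lost in 8 of 17 alternatives, namely with the library index as a covariate (adjusted p = 0.0693), after removal of the length and GC trend (0.0766) and in all 6 fits that left out 1 library of either group (0.0665 to 0.169).

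**Figure D1:**
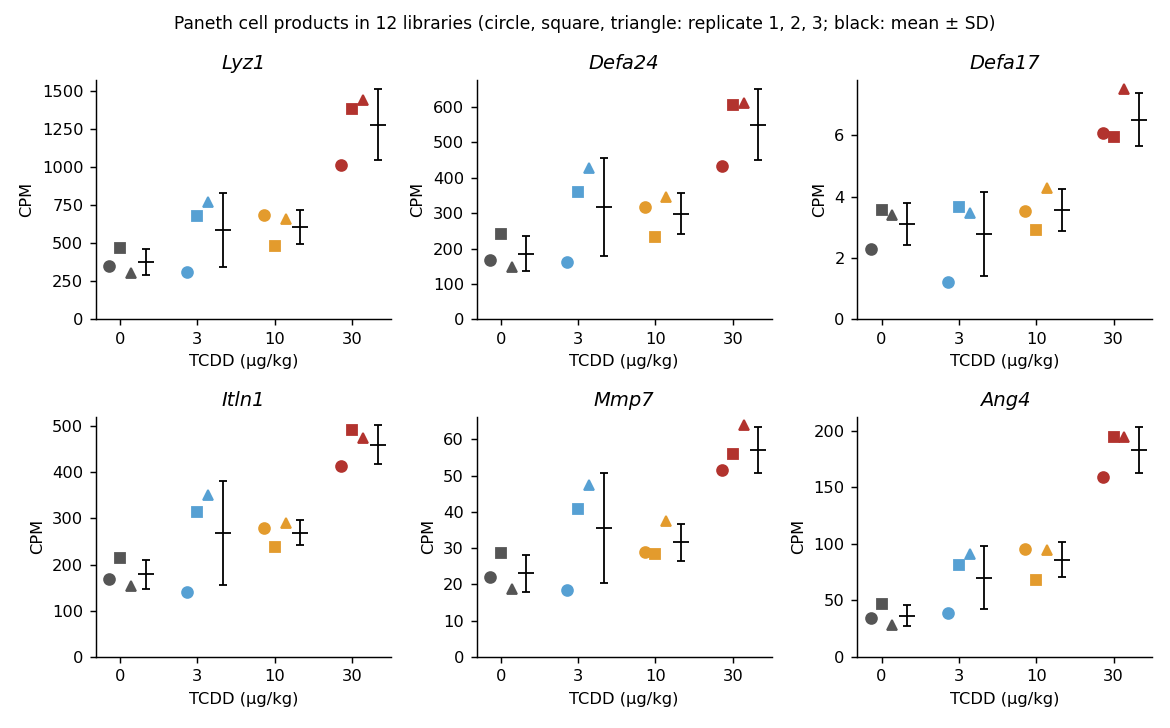
CPM of the 6 genes (vertical axes, linear, from 0) against TCDD dose in µg/kg; each symbol is 1 library and the black bar is the mean ± SD of 3. The 30 µg/kg libraries lie above every other library in all 6 panels, and replicate 1 of 3 µg/kg (circle) lies at the vehicle level or below it, apart from replicates 2 and 3.

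A change counted as called where the adjusted p lay under 0.05 and the size was 1.5-fold or more. At 30 µg/kg 5 of the 6 genes were called higher and none lower, where 3.08% of the 15823 genes tested were called higher. The 6 were chosen with earlier results of these data known, so the shares in this paragraph are descriptions and no independent support. The median log2 change of the 6 was 1.47, beside -0.02 for all genes tested. In the slope over dose rank 5 were called (2.53% of all genes were called higher), with a median fitted change of 1.31 over the whole range. At 10 µg/kg 0 of 6 were called by edgeR (0.487% of all genes were called higher), although 4 had an unadjusted p under 0.05, and DESeq2 called 1. At 3 µg/kg edgeR called 0 of 6 (0.0569% of all genes), 5 had an unadjusted p under 0.05, and DESeq2 called 0. Between 30 and 10 µg/kg 1 of 6 was called (2.17% of all genes), 6 had an unadjusted p under 0.05, and the median log2 difference was 0.87. The groups did not overlap in 6 of 6 genes at 30 µg/kg, in 3 at 10 µg/kg and in 0 at 3 µg/kg, where 14.2%, 11.9% and 8.58% of all genes were higher without overlap. Between 30 and 10 µg/kg they did not overlap in 6 of 6, beside 14.7% of all genes. The 3 doses share the vehicle libraries, so these comparisons are not independent of each other.

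**Figure D2:**
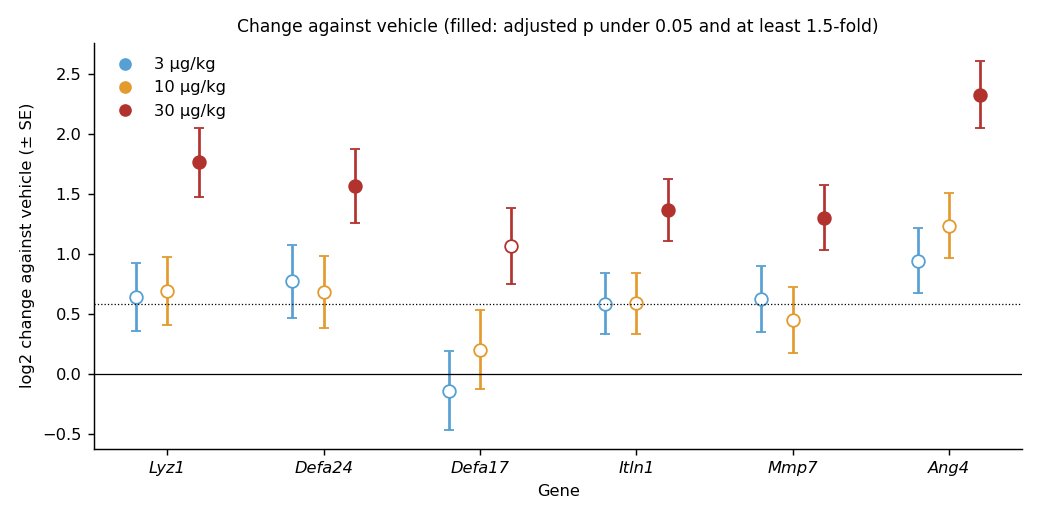
Log2 change against vehicle (vertical axis, ± SE from the edgeR fit) of the 6 genes at 3, 10 and 30 µg/kg; filled symbols passed the adjusted p and 1.5-fold limits, and the dotted line marks 1.5-fold. The filled symbols are Lyz1, Defa24, Itln1, Mmp7 and Ang4 at 30 µg/kg, from 1.30 to 2.33.

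The number of calls at 3 µg/kg depended on 1 library. Replicate 1 of that group had Lyz1 at 313 CPM and Ang4 at 38.3 CPM, where replicates 2 and 3 had 679 and 774 CPM of Lyz1 and 81.1 and 90.8 CPM of Ang4. Without replicate 1, which left only replicates 2 and 3 in the group, 5 of the 6 genes were called at 3 µg/kg (0.639% of the genes then tested were called higher). The log2 changes were 0.94 for Lyz1 (edgeR adjusted p = 0.0441), 1.08 for Defa24 (0.0399), 0.93 for Mmp7 (0.0283), 0.89 for Itln1 (0.0162) and 1.23 for Ang4 (0.0162). Defa17 was then at 0.20 and did not pass (adjusted p = 0.701). The 5 calls are no separate support for a change at 3 µg/kg, because the library left out, replicate 1, had the lowest value of its group in all 6 genes. The same replicate had the most Cyp1a1 of its group, at 141 CPM against 68.8 and 22.2 CPM, and a circadian clock score (the mean standardised level of Dbp and like output genes less that of Arntl and its partners) of 1.29 against -1.35 and -1.65. Cell type markers set it apart too: the stem cell list summed to 179 CPM against 380.5 and 329.9 CPM in replicates 2 and 3, the proliferation list to 265 against 505 and 547 CPM, and the enterocyte list to 71017 against 47203 and 49524 CPM. The part of these markers in the low Paneth values was not tested. Fabp6 and Slc10a2, given above, set the whole 3 µg/kg group apart from vehicle, and their part in the changes at this dose was not tested either. With the clock score as a covariate 0 of 6 genes were called at 3 µg/kg and 6 of 6 at 30 µg/kg.

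Levels can be compared between the genes only per kilobase of exon. On that scale the vehicle means were 442 ± 117 CPM per kb for Defa24, 299 ± 65.7 for Lyz1, 157 ± 27.2 for Itln1, 51.4 ± 12.9 for Ang4, 21.6 ± 4.76 for Mmp7 and 7.80 ± 1.72 for Defa17 (SD, n = 3). At 30 µg/kg they were 1311 ± 241, 1015 ± 185, 403 ± 36.4, 258 ± 28.9, 53.4 ± 5.88 and 16.4 ± 2.17 CPM per kb in the same order. The order was thus the same at both ends of the dose range, and Defa24 and Lyz1 were the neighbours whose libraries overlapped. The share of unique 50-base windows was 8.05% in Defa17, 71.9% in Defa24, 83.9% in Lyz1, 95.3% in Ang4, 99.0% in Itln1 and 100% in Mmp7. Reads that align to several places were not counted, so the levels of Defa17 and Defa24 on this scale may be too low.

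Ratios within a library describe how the products moved relative to each other. The ratio of Ang4 to Lyz1 CPM within a library was 0.0916 to 0.0987 in vehicle, 0.117 to 0.122 at 3 µg/kg, 0.139 to 0.143 at 10 µg/kg and 0.134 to 0.157 at 30 µg/kg. The treated libraries were all above vehicle in this ratio, replicate 1 of 3 µg/kg included at 0.122. The ratio of Itln1 to Lyz1 was 0.455 to 0.501 in vehicle and 0.328 to 0.408 at 30 µg/kg, and that of Mmp7 to Lyz1 was 0.0603 to 0.0623 and 0.0404 to 0.0507. Both ratios were below their vehicle range in every 30 µg/kg library. These ratios are given as descriptions, with no test.

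Across the 12 libraries the log2 CPM of the genes correlated pairwise with Pearson's r of 0.94 to 0.99 for the 10 pairs without Defa17, and of 0.80 to 0.99 for all 15 pairs. After each group's mean was subtracted, r was 0.83 to 0.99. The widest spread within a group was at 3 µg/kg. There the mean standardised log2 CPM of the 6 was -1.48 in replicate 1, against 0.23 and 0.44 in replicates 2 and 3. At 30 µg/kg it was 0.96, 1.32 and 1.46. The within-group r thus leans on replicate 1 of 3 µg/kg, and r without that library was not computed. These values are a description, since the points share library, depth and dose. Other genes with a mean count of at least 50 were ranked by how closely their log2 CPM followed the mean of the 6. Genes whose symbol starts with Defa were left out of this ranking. Of 11149 compared, the closest were Gm15293 (r = 0.964), Rps18 (0.961), Nono (0.961), the colipase gene Clps (0.960) and Rpl9 (0.956). Gm15293 lies among the alpha-defensins on chromosome 8, and Clps is listed here with the other Paneth products. Rps18 and Rpl9 encode ribosomal proteins and Nono an RNA-binding nuclear protein. Rps18 was at 51.3 ± 6.26 CPM in vehicle and 97.5 ± 4.43 CPM at 30 µg/kg, and Nono at 70.8 ± 3.66 and 91.4 ± 4.26 CPM (SD, n = 3).

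Short genes as a class were higher at 30 µg/kg, which bears on the defensins first. The exon union was 397 nt in Defa17, 419 nt in Defa24, 709 nt in Ang4, 1068 nt in Mmp7, 1141 nt in Itln1 and 1263 nt in Lyz1. The 86 protein-coding genes of 300 to 600 nt were at a median of 1.17 (log2) above vehicle at the highest dose, and 53.5% of them were called higher. Without the genes named Defa and the alpha-defensin gene AY761184, 72 genes remained with a median of 1.04 and 50% called. Gm15293 (418 nt, log2 2.62), which lies among the alpha-defensins on chromosome 8, was not removed. In this class 44 genes changed by more than Defa17 and 20 by more than Defa24, so both lay within the range of genes as short as themselves.
Ang4 stood farther out in its class. Among 210 genes of 600 to 1000 nt, with a median of 0.37, 3 changed by more than Ang4. Among 1364 genes of 1000 to 2000 nt, with a median of 0.17, 13 changed by more than Lyz1, 31 by more than Itln1 and 36 by more than Mmp7. With the trend of each library with exon length and GC content removed, the log2 changes at 30 µg/kg were 1.64 for Lyz1 (adjusted p = 0.00446), 1.36 for Defa24 (0.0201), 1.16 for Mmp7 (0.0229), 1.20 for Itln1 (0.0155) and 2.15 for Ang4 (0.000425). The same 5 genes were called, and Defa17 was at 0.88 (0.115). The removal was only partial for short genes. The class of 300 to 600 nt kept a median of 0.88, with 41.9% called higher. The class of 600 to 1000 nt kept 0.19, with 14.3% called higher.

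**Figure D3:**
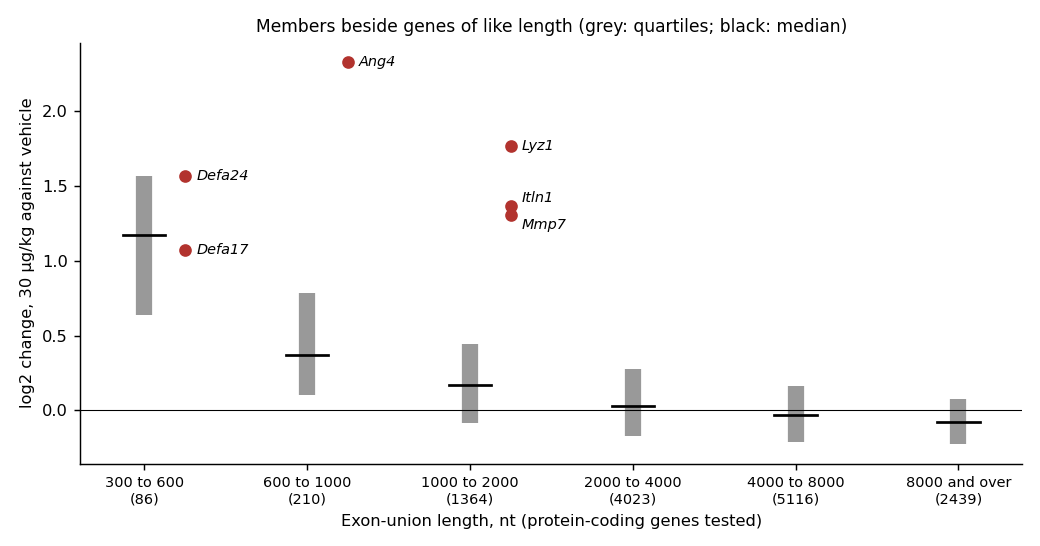
Log2 change at 30 µg/kg against vehicle (vertical axis) of protein-coding genes tested, by exon-union length in nucleotides (horizontal axis, number of genes in brackets); grey bars span the quartiles, black lines are medians and red points are the 6 genes. Defa17 and Defa24 lie beside a class with a median of 1.17, with Defa24 at its upper quartile and Defa17 below its median, and Ang4, Lyz1, Itln1 and Mmp7 lie above the upper quartile of theirs.

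The near copies of Lyz1 and Ang4 were not called at any dose. Lyz2 shares 95.1% of its coding bases with Lyz1 and 195 of the 1214 windows of 50 bases in the Lyz1 transcript. It was at 6.32, 14.7 and 20.8 CPM in vehicle and at 9.29, 8.62 and 9.58 CPM at 30 µg/kg, with a log2 difference of -0.60 ± 0.37 SE (adjusted p = 0.366). The ratio of Lyz1 to Lyz2 CPM was 14.9 to 56.1 in vehicle and 109 to 161 at 30 µg/kg. The 11 myeloid genes listed with Lyz2 summed to 47.6 to 64.3 CPM in vehicle and 63.4 to 67.8 CPM at 30 µg/kg, and of 7 tested 0 were called by edgeR (2 had an unadjusted p under 0.05). Ang, the other angiogenin gene that passed the filter, was at 9.25, 5.05 and 5.41 CPM in vehicle and at 8.12, 5.42 and 12.0 CPM at 30 µg/kg (log2 0.39 ± 0.32 SE, adjusted p = 0.517).

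Most other alpha-defensins with enough counts were higher at 30 µg/kg, as Defa24 was. Of 38 annotated, 17 are Defa-ps pseudogenes, and 14 of the 38 (2 of them pseudogenes) passed the filter on low counts. Of these 14, 10 were called higher, Defa-ps6 included, and none lower, with a median log2 change of 1.82. Of all genes tested, 3.08% were called higher, and of the genes of 300 to 600 nt without those named Defa and AY761184, 50%. The summed level of all 38 was 245 to 430.5 CPM in vehicle and 723 to 1180 CPM at 30 µg/kg. Defa23 was at 6.26, 6.34 and 4.52 CPM in vehicle and 46.9, 57.2 and 52.6 CPM at 30 µg/kg (log2 3.19 ± 0.33 SE, adjusted p = 0.00012). Defa22 was at 49.4, 62.8 and 38.1 CPM in vehicle and 139, 233 and 256 CPM at 30 µg/kg (log2 2.06 ± 0.30 SE, adjusted p = 0.00133). Defa29, Defa34 and Defa37 had log2 changes of 1.81, 2.85 and 1.97. AY761184, the most abundant of the list in vehicle at 77.7, 109 and 71.0 CPM, was at 117, 156 and 154 CPM at 30 µg/kg and was not called (log2 0.73 ± 0.29 SE, adjusted p = 0.161; named after its values were seen). Like Defa17 and Defa24, these genes are short and share sequence, and the length class given above applies to them.

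At the lower doses the proportions among the defensins were not those of vehicle. Defa22 and its near copies Defa21 and Defa20 were no higher than vehicle on average at 3 and 10 µg/kg, with log2 differences of -0.23 and -0.27 for Defa22, -0.26 and -0.42 for Defa21 and -0.28 and -0.58 for Defa20, none of which passed. Defa24 and its near copy Defa30 had 0.77 and 0.69, and 0.94 and 0.93, which did not pass either. Within libraries the ratio of Defa22 to Defa24 CPM was 0.257 to 0.296 in vehicle, 0.118 to 0.157 at 3 µg/kg, 0.107 to 0.167 at 10 µg/kg and 0.321 to 0.419 at 30 µg/kg. Defa21 to Defa24 went from 0.243 to 0.278 in vehicle to 0.107 to 0.157 and 0.0907 to 0.142 at the 2 lower doses, and was 0.206 to 0.305 at 30 µg/kg.
The Defa22 ratio in the 6 libraries of 3 and 10 µg/kg was below that in every vehicle library, and the ratio at 30 µg/kg was above vehicle in every library. Replicate 1 of 3 µg/kg, which had a vehicle-like amount of Defa24, had a Defa22 ratio of 0.157 like the rest of its group. Defa30 to Defa24 was 0.224 to 0.264 in vehicle and 0.277 to 0.326 at 30 µg/kg, likewise higher in every 30 µg/kg library than in any vehicle library. Defa20, Defa21, Defa30 and these ratios were chosen after their values were seen and carry no test. Fabp6 and Slc10a2 set the 3 µg/kg group apart, and Mptx1 had counts mainly at 10 µg/kg. The part of position along the intestine in these ratios was not tested, and it cannot be told apart from dose here. Between 30 and 10 µg/kg, Defa22 was called at a log2 difference of 2.33 ± 0.30 SE (adjusted p = 0.000886), where Defa24 was at 0.88 ± 0.30 SE (adjusted p = 0.116); the difference between the pair was not tested.

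**Figure D4:**
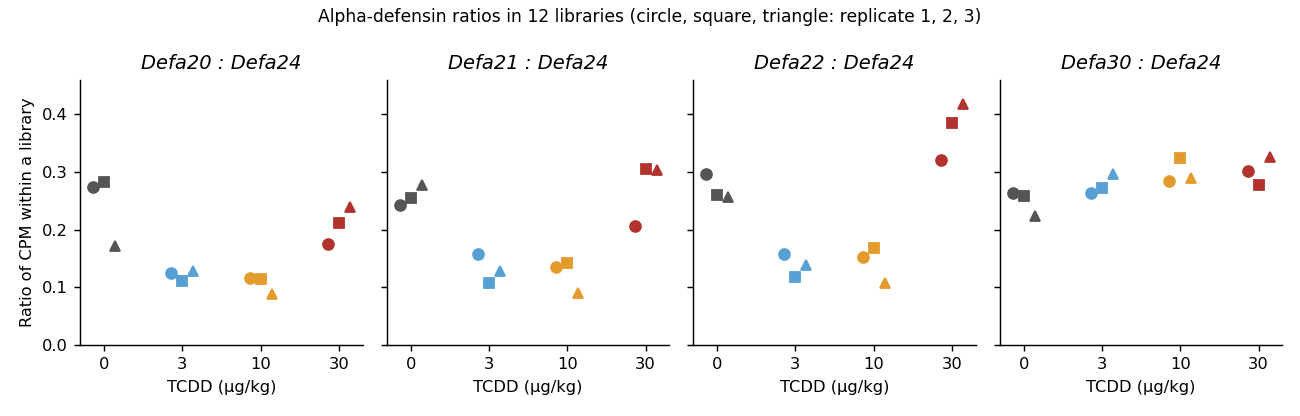
Ratio of the CPM of Defa20, Defa21, Defa22 and Defa30 to that of Defa24 within each library (vertical axis, linear, from 0) against TCDD dose in µg/kg; each symbol is 1 library. The first 3 ratios are lower at 3 and 10 µg/kg than in any vehicle library, while Defa30 to Defa24 stays between 0.224 and 0.326 in all 12.

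On the list of other Paneth products 11 genes were tested, and 8 were called higher at 30 µg/kg (median log2 change 1.53), beside 3.08% of all genes tested. Their summed level was 125 to 161 CPM in vehicle, 215 to 247 CPM at 10 µg/kg and 352 to 412 CPM at 30 µg/kg. The pentraxin gene Mptx2 was at 32.8, 43.6 and 32.0 CPM in vehicle and 147, 138 and 167 CPM at 30 µg/kg (log2 2.06 ± 0.32 SE, adjusted p = 0.00251). The predicted genes Gm15293 and Gm15292, short like the alpha-defensins and lying among them on chromosome 8, had log2 changes of 2.62 and 1.68. The stress protein gene Nupr1 is on this list and among its calls, although it does not encode a secreted product. With 2514 nt of exon Nupr1 is outside the short classes. Nupr1 rose at 10 µg/kg by a log2 of 0.87 (adjusted p = 0.0372) and at 30 µg/kg by 1.45 (adjusted p = 0.000287).
The lipase-related gene Pnliprp2 was at 17.3, 27.5 and 27.2 CPM in vehicle and 66.7, 81.4 and 62.3 CPM at 30 µg/kg (log2 1.54 ± 0.25 SE, adjusted p = 0.00267). Pnliprp2 and Clps are also made by pancreatic acinar cells, whose 11 marker genes were low and were given no part in a test of source. At 3 µg/kg these markers summed to 2.34 to 3.70 CPM, where Pnliprp2 (log2 -0.32) and Clps (0.25) were not called. The 11 markers summed to 9.76 to 11.7 CPM in vehicle and 2.76 to 3.61 CPM at 30 µg/kg. At 30 µg/kg 6 of the 11 had no count in any library of the group, and 3 of 4 tested were called lower. The cell source of Pnliprp2 and Clps was not tested.

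Of the genes that specify the lineage or serve its niche 23 were tested, and 3 were called higher at 30 µg/kg and none lower, with a median log2 change of 0.24. Of all genes tested, 3.08% were called higher. The genes named below are from this list. All genes of this list have 2121 nt of exon or more, whereas the 6 products have at most 1263 nt, so the list and the products fall in different length classes, and the difference between them was not tested. Atoh1, the transcription factor that commits crypt cells to the secretory lineages, was at 14.7, 19.9 and 17.8 CPM in vehicle, between 14.5 and 19.0 CPM at 3 and 10 µg/kg, and at 26.6, 28.3 and 30.6 CPM at 30 µg/kg. Its increase of 0.71 ± 0.13 SE on the log2 scale passed (adjusted p = 0.00513), as did that of the stem cell factor receptor gene Kit (1.12 ± 0.17 SE, adjusted p = 0.00211). The third was the Wnt ligand gene Wnt3, named after its value was seen, at 1.22 ± 0.27 SE (adjusted p = 0.0206). Sox9, which Paneth cells need to form, was at 12.5, 16.4 and 12.0 CPM in vehicle and 17.1, 17.4 and 13.9 CPM at 30 µg/kg (log2 0.24 ± 0.21 SE, adjusted p = 0.557). Gfi1, which separates goblet and Paneth from enteroendocrine fates, differed by 0.24 ± 0.19 SE (adjusted p = 0.505). Neither passed the test.

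**Figure D5:**
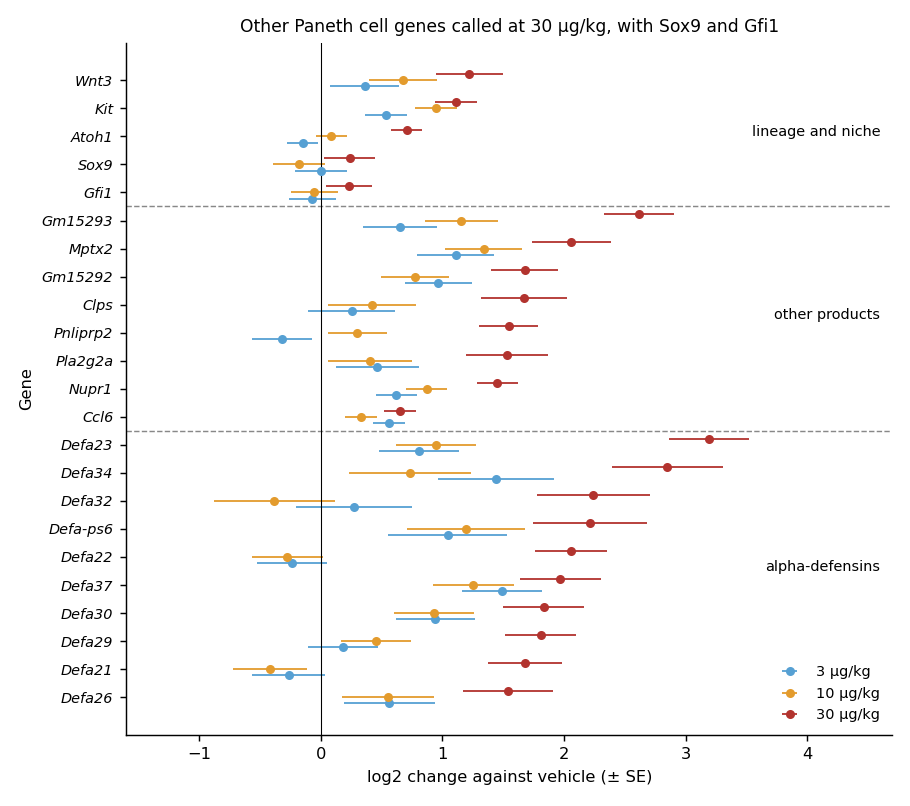
Log2 change against vehicle (horizontal axis, ± SE from the edgeR fit) at 3, 10 and 30 µg/kg of the 21 other Paneth cell genes called at 30 µg/kg, with Sox9 and Gfi1. Dashed lines divide lineage and niche genes, other products and alpha-defensins; Defa21 and Defa22 lie below 0 at 3 and 10 µg/kg and above 1.5 at 30 µg/kg.

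Markers of other cell types moved in part with the Paneth products at 30 µg/kg, where 3.08% of all genes tested were called higher. Of 12 enteroendocrine genes 7 were called higher (median log2 change 0.69), with Sct at 0.94 and Chgb at 0.75 at the lowest adjusted p, and their summed level was 189 to 217 CPM in vehicle and 283 to 330 CPM at 30 µg/kg. Of 11 goblet genes 4 were called higher (median 0.51), with Spink4 at 0.99 and Tff3 at 0.90 at the lowest adjusted p, and with sums of 12805 to 16748 CPM in vehicle and 16485 to 17922 CPM at 30 µg/kg, which overlapped. Spink4 (477 nt of exon) and Tff3 (493 nt) rose less than the median of 1.17 in their class of 300 to 600 nt. Sct (645 nt) is in the class of 600 to 1000 nt, with a median of 0.37. Chgb (2740 nt) is in that of 2000 to 4000 nt, with a median of 0.03. Of 12 inducible epithelial antimicrobial genes tested 1 was called, Reg4 at 0.87, and the list had a median of -0.18. By edgeR 0 were called of 13 enterocyte, 10 stem cell, 12 proliferation and 7 tuft genes tested, where 0, 2, 6 and 2 had an unadjusted p under 0.05. The proliferation list was at a median of 0.53 (log2) over vehicle and summed to 378 to 524 CPM at the highest dose, above the 296 to 349 CPM of vehicle without overlap. The part of any of these in the Paneth result was not tested.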

How the data were processed

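RNA from proximal ileal epithelium of 12 mice, 3 per dose group by the labelled dose, was sequenced by the authors. They deposited 1 table for each library, holding unnormalised read counts by Ensembl gene. The submitters' processing notes name Trimmomatic 0.33, TopHat2 2.1.0, SAMtools 1.2.0, HTSeq 0.6.1 and DESeq with build GRCm38, while the annotation release and strand setting are not given in the sources used here. Reads placed in no gene, in several genes or at more than 1 place are listed apart, held 60.3 to 64.6% of the reads tallied per library and were left out. HTSeq discards reads that align to several places, which lowers the counts of near-identical genes such as the alpha-defensins. Of 46078 genes, 45229 matched GENCODE M21 by identifier; the unmatched held 0.749% of counts. No 2 libraries were identical, and nothing states whether libraries of a group came from separate cages or days, so p-values measure the spread between these libraries.

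Counts were filtered with filterByExpr, scaled with TMM factors and fitted as 1 quasi-likelihood model of 4 groups in edgeR 4.0.16 (R 4.3.3), with Benjamini-Hochberg adjustment over the 15823 genes tested; a call needed an adjusted p under 0.05 and at least 1.5-fold. The study itself used an empirical Bayes posterior, which was not repeated. A slope over dose rank was fitted likewise. CPM used TMM-scaled totals, and log2 CPM a prior count of 2. A count of 3 was taken as the floor, which covers counting error only. The SE came from the edgeR fit and includes the spread between libraries. The test was tried on simulated data. Alternatives were other scalings and filters, DESeq2 1.42.0, limma-voom (limma 3.58.1), fits of only the groups compared, library index or clock score as covariate, removal of each library's trend with exon length and GC content (mgcv 1.9.3), and leaving out each library.

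The 6 genes and all lists were chosen with earlier results of these data known. Besides the 6 genes, those named were the 12 other Paneth genes with the lowest adjusted p at 30 µg/kg, the lineage factors Sox9, Atoh1 and Gfi1, at most 2 genes of each other list and the copies Lyz2 and Ang. Named too were the 5 genes correlated best with the mean of the 6, outside the 6 and symbols starting with Defa. Others named were chosen after their values were seen, Cyp1a1, Fabp6 and Slc10a2 as checks of the labels.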

Additional observations from a re-analysis of the deposited data

Results flagged for a closer look

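Reads that aligned to more than 1 place, which enter no gene's count, made up a mean of 37.7% of the reads tallied in the 30 µg/kg libraries (36.2 to 38.8%), above every vehicle library (32.5 to 34.6%). They were 31.4 to 33.1% at 3 µg/kg and 31.9 to 34.2% at 10 µg/kg. Reads in no annotated gene were in turn fewer at 30 µg/kg, at 25 to 25.4% against 28 to 30.1% in the libraries of the other groups. Reads of Defa17 and Defa3 would fall in this class wherever the pair is identical, and whether they did was not tested.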

How the results depend on the processing

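At 30 µg/kg Lyz1, Itln1 and Ang4 were called in all 17 alternatives, Defa24 in 16, Mmp7 in 15 and Defa17 in 5, and all 6 genes were higher in each. The count of the 6 called at 30 µg/kg was 3 to 5 when 1 library was left out. It was 3 without vehicle replicate 3, where Defa24 (adjusted p = 0.0514) and Mmp7 (0.0694) were lost; Mmp7 was also lost without replicate 3 of 30 µg/kg (0.0527). In the dose trend it was 3 to 6, and 3 without replicate 2 or replicate 3 of 30 µg/kg. At 3 µg/kg it was 0 to 5 with 1 library left out, 5 without replicate 1 of that dose, and 1 with no filter on low counts. At 10 µg/kg it was 1 with no filter, with DESeq2 and with only the groups compared. Between 30 and 10 µg/kg the main count of 1 became 5 with no filter, 2 with at least 10 counts in every library, 5 with DESeq2, 6 with only the groups compared, 3 with the clock score, 0 with the library index, 0 with the length and GC trend removed and 0 in every fit that left out 1 library (0 to 0). Defa17 at 3 µg/kg changed sign, from -0.14 to 0.048 with the length and GC trend removed, and ranged from -0.38 to 0.20 with 1 library left out (0.20 without replicate 1 of that dose); the cause was not tested. The median log2 change of genes of 300 to 600 nt was 1.34 with at least 10 counts in every library, which tests fewer genes, and 0.88 with the trend removed. Over all genes the calls at 3 µg/kg were 36 as reported, 6 to 84 under other settings and 19 to 162 with 1 library left out. At 10 µg/kg they were 97, 59 to 262 and 45 to 59. Between 30 and 10 µg/kg they were 439, 290 to 598 and 188 to 348, and in the trend 520, 371 to 722 and 297 to 640. The other Paneth lists gave 21 calls at 30 µg/kg, 19 to 24 under other settings and 15 to 23 with 1 library left out. No paired analysis was possible because the labels give no replicate numbers, so libraries were not matched by them. Each library index occurred in 1 library of every dose, and with the index as a covariate 0 of 6 were called at 3 and at 10 µg/kg, 5 at 30 µg/kg and 5 in the trend. At 3 µg/kg the SE was 0.33 for Defa17, with as few as 16 counts in a library, and 0.28 for Lyz1, with at least 4150.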

Other observations

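Mptx1 and Retnlb had counts mainly at 10 µg/kg, and both were picked out after their values were seen. Mptx1 is listed here with the Paneth products but did not follow them. It was at 0 to 0.102 CPM at 30 µg/kg, where the 6 were highest. The part of position along the intestine in this pattern was not tested. Mptx1, a second pentraxin gene, was at 2.95, 3.99 and 3.43 CPM at 10 µg/kg and between 0 and 0.352 CPM in the other 9 libraries, at or near the 3-count floor. At 10 µg/kg the log2 change of Mptx1 was 4.26 ± 0.53 SE (adjusted p = 0.00193, edgeR). Retnlb, the goblet cell resistin-like protein, was at 1.01, 0.798 and 0.612 CPM at 10 µg/kg and at 0 to 0.411 CPM elsewhere, and its change did not pass (adjusted p = 0.162). Fabp6 was in turn above the floor at 3 µg/kg, with a log2 change of 8.68 there (adjusted p = 3.91e-07). The 6 Paneth products followed neither pattern.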
